A study of Homo sapiens with 4 samples.

Results

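Transcript levels of 9 genes that encode pyruvate dehydrogenase subunits and enzymes of the tricarboxylic acid (TCA) cycle were compared between MM.1S cells given JG342 and MM.1S cells given the solvent DMSO. The genes were taken by symbol and were PDHA1, PDHB, CS, IDH2, IDH3A, OGDH, SUCLG1, FH and MDH2. All 9 were found among the 16057 genes of the table, and all 9 passed the filter on low values described below. MM.1S is an established human multiple myeloma line. JG342, known here by its code name, is an allosteric inhibitor of the chaperone HSP70, and was used at 350 nM for 26 h. The control cells received DMSO for the same 26 h. Both groups were grown in RPMI-1640 medium with fetal bovine serum, antibiotics and glutamine, and each had 2 libraries, described by the submitters as biological duplicates. Since 1 cell line was used, the comparison speaks of that line. The title of the series places the comparison in the context of mitochondrial protein homeostasis, and the comparison of these genes asks whether transcripts of the central oxidative enzymes of mitochondria differ when HSP70 is inhibited.

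Pyruvate made by glycolysis enters mitochondria and is turned into acetyl-CoA by the pyruvate dehydrogenase complex. The TCA cycle then oxidises the acetyl group step by step, yielding reduced carriers for the respiratory chain and carbon skeletons for amino acids and lipids. The enzymes are encoded in the nucleus, made in the cytosol and imported into the mitochondrial matrix, where the matrix HSP70, encoded by HSPA9, takes part in import and folding. Transcript levels say nothing of how much enzyme was imported, and protein was not analysed here.

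The values are in TPM, a length-corrected share of each library's transcripts, so that levels can be compared between genes. TPM totals lay between 994463 and 994718 per library. An approximate depth, derived from the steps between low values, was 8570000 to 9560000 reads per library, and by the same estimate each of the 9 genes rested on about 570 to 3120 reads per library. Counting error alone at the smallest of these numbers is 4.18%. All 10 plasma cell markers listed were above 1 TPM. Their summed levels were 14838 to 15116 TPM in DMSO and 10251 to 10940 TPM in JG342, most of it JCHAIN. JCHAIN was at 9907 and 10383 TPM in DMSO and at 5732 and 5431 TPM in JG342. The markers did not all fall: IRF4 was at 353 and 353 TPM in DMSO and at 589 and 615 TPM in JG342. Leaving out the 10 most abundant genes, JCHAIN among them, and rescaling moved the median log2 fold change of the 9 genes from −0.051 to −0.074; median scaling gave −0.12. Markers of other cells were low: the summed levels were at most 0.26 TPM for B cells, 8.11 TPM for T cells, 1.39 TPM for stromal cells and 11.4 TPM for erythroid cells, and the monocyte list reached 46.2 TPM, nearly all of it LYZ, with CD14, CSF1R and ITGAM under 1 TPM.

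None of the 9 genes changed past the threshold, a limma adjusted p under 0.05 over the 12042 genes that averaged 1 TPM or more. In the same test 18.4% of all fitted genes passed, 10.8% as higher and 7.62% as lower after JG342. Among the 9, CS, SUCLG1 and FH had an unadjusted limma p under 0.05, as had 33.6% of all fitted genes. The changes were small. On the scale of log2(TPM + 1), the fold changes ran from −0.30 for CS to 0.23 for SUCLG1, with 3 above 0 and 6 below. The median of the 9 was −0.051, against 0.027 over all fitted genes. It ran from −0.12 without JG342 replicate 1 to −0.031 without JG342 replicate 2, and was −0.11 without DMSO replicate 1 and −0.064 without DMSO replicate 2. The median absolute change was 0.14, against 0.22 over all fitted genes. Added up, the 9 genes came to 1419 and 1459 TPM with DMSO and to 1383 and 1393 TPM with JG342. In bulk RNA, a smaller part of the cells holding these transcripts and a smaller share of them in each cell cannot be told apart.

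With the replicate number as a block, which pairs libraries of the same number, 3 of the 9 passed: CS and FH as lower and SUCLG1 as higher. That fit called 34.9% of all fitted genes, 19.2% as higher and 15.7% as lower, so the share of the 9 was close to the background. Only 1 residual degree of freedom remained there, and variances came from the trend over expression alone. When the libraries were also scaled to equal medians, CS, FH and PDHB passed as lower and none as higher, where 35.1% of all genes passed. Median scaling without the block passed CS alone (18% of all genes), as did leaving out the 10 most abundant genes and rescaling the rest (18.8% of all genes). In the other 10 alternatives tested, none of the 9 passed.

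**Figure D1:**
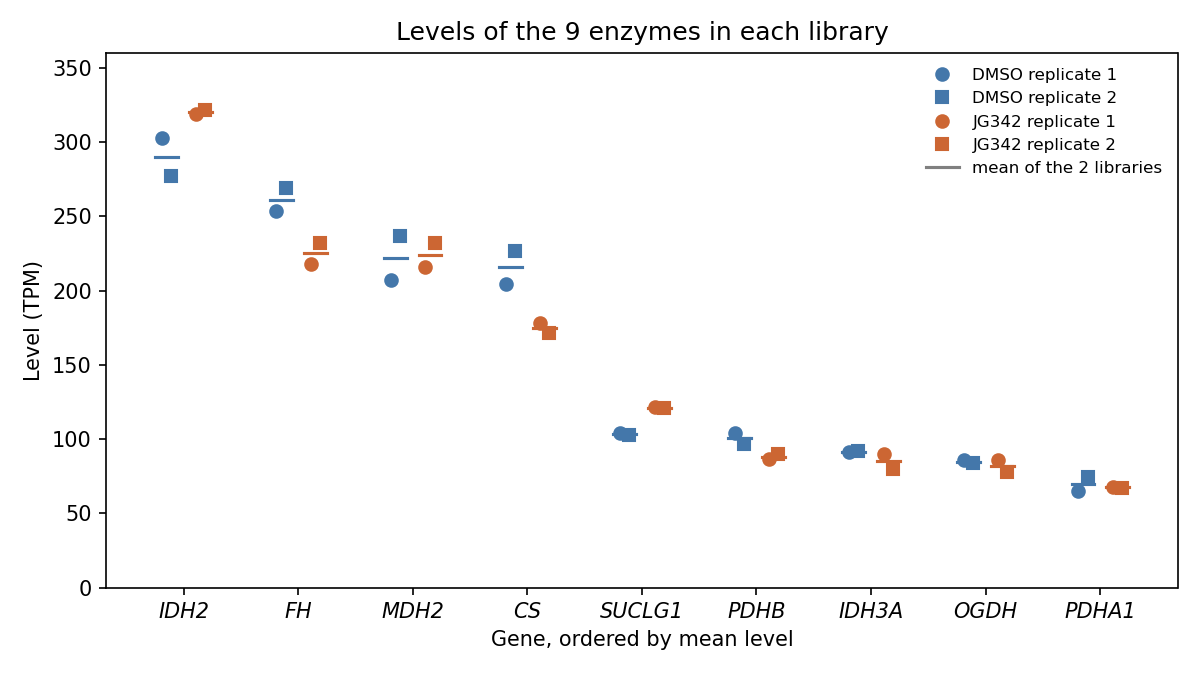
Level of each of the 9 enzymes in TPM (linear axis from 0) in the 4 libraries, with genes ordered by mean level. Circles are replicates 1, squares are replicates 2, blue is DMSO, orange is JG342, and each bar is the mean of the 2 libraries. CS sits at 205 and 227 TPM in DMSO and at 178 and 172 TPM in JG342, while the JG342 values of MDH2, 216 and 232 TPM, lie between its DMSO values.

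The 9 genes were well expressed and had the same order of mean levels in both groups. IDH2 was the highest, with a mean of 305 TPM over the 4 libraries, above 96.3% of fitted genes. FH, MDH2 and CS followed at 243, 223 and 195 TPM. SUCLG1 was at 112 TPM, PDHB at 94.4 TPM, IDH3A at 88.3 TPM, OGDH at 83.4 TPM, and PDHA1 was the lowest at 68.6 TPM, still above 80.6% of fitted genes. The ranges over the 4 libraries overlapped between FH and MDH2, between MDH2 and CS, and between each neighbouring pair from SUCLG1 down to OGDH, so these neighbours did not separate over all libraries. Within libraries, MDH2 exceeded CS and IDH3A exceeded OGDH in 4 of 4, and the other overlapping neighbours kept their order in 3 of 4. Gaps without overlap lay between IDH2 and FH, between CS and SUCLG1, and between OGDH and PDHA1.

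PDHA1 (NM_000284) encodes the alpha subunit of the first component of the pyruvate dehydrogenase complex, which carries the serines that regulatory kinases phosphorylate. Its levels were 65.2 and 74.2 TPM in DMSO and 68.1 and 67.0 TPM in JG342. Both JG342 values lay between the DMSO values. The log2 fold change was −0.042 ± 0.11 (SE), with a 95% interval from −0.28 to 0.20 and a limma adjusted p of 0.822. The annotated PDHA1 transcript shares 28.9% of its bases with exons of MAP3K15 on the opposite strand, and since no source states that strand was used in counting, reads of the 2 genes could be mixed there. MAP3K15 itself was at 5.60 to 6.68 TPM.

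PDHB (NM_000925) encodes the beta subunit, the partner of PDHA1 in the first component. It was at 104 and 96.7 TPM in DMSO and at 86.7 and 89.8 TPM in JG342, so that the groups did not overlap. Non-overlap was common in these data: it held for 6 of the 9 genes and for 62.1% of all fitted genes. On the log2 scale the change was −0.18 ± 0.098 (SE), with a 95% interval from −0.41 to 0.037 and a limma adjusted p of 0.222 (0.0473 to 0.581 over 14 alternatives). The ratio of PDHA1 to PDHB was 0.625 and 0.767 in DMSO and 0.785 and 0.746 in JG342, which overlap.

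Of the 12 listed genes for the other subunits, the kinases and phosphatases of the complex and the mitochondrial pyruvate carrier, 11 were fitted, 1 was called higher, 1 lower and 9 neither (18.2% called, against 18.4% of all fitted genes), with a median log2 fold change of −0.022. No gene of the complex, its kinases or its phosphatases passed. The 2 that did were the subunits of the pyruvate carrier, which is not part of the complex and brings pyruvate across the inner membrane. MPC1 rose from 121 and 121 TPM in DMSO to 164 and 212 TPM in JG342, by 0.62 ± 0.12 on the log2 scale (SE, limma adjusted p 0.0108). MPC2 fell from 105 and 111 to 83.0 and 85.4 TPM, by 0.36 on the log2 scale (SE 0.096, limma adjusted p 0.0330). The adjusted p of MPC1 was 0.0546 without DMSO replicate 1 and 0.0646 without DMSO replicate 2 (log2 fold change 0.62 in both). That of MPC2 was 0.0695 to 0.193 with any 1 library left out, with log2 fold changes of −0.40 to −0.32. DLAT, the lipoate-bearing second component, was at 49.6 and 52.3 TPM in DMSO and 41.8 and 37.6 TPM in JG342 (limma adjusted p 0.0552; 0.00486 with the replicate block). PDK1, the most abundant of the 3 fitted kinases that switch PDHA1 off, was at 86.4 and 79.7 TPM in DMSO and 78.3 and 67.9 TPM in JG342 (limma adjusted p 0.278).

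CS (NM_004077) encodes citrate synthase, which joins acetyl-CoA to oxaloacetate and opens the cycle. Its levels were 205 and 227 TPM in DMSO and 178 and 172 TPM in JG342. The groups did not overlap, and this was the largest difference among the 9 genes, with a JG342 mean 0.811 times that of DMSO. The log2 fold change was −0.30 ± 0.096 (SE), with a 95% interval from −0.52 to −0.082. The limma adjusted p was 0.0605, and 0.00225 with the replicate block; over 14 alternatives it ran from 0.00225 to 0.333. It was −0.20 in the pair of replicates 1 and −0.40 in the pair of replicates 2. A processed pseudogene matches 47.1% of the CS transcript at 97.6% identity, so the assignment of some reads is uncertain.

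IDH2 (NM_001289910) encodes the NADP-dependent isocitrate dehydrogenase of the matrix. It stood at 303 and 277 TPM in DMSO and at 319 and 321 TPM in JG342, with both JG342 values above both DMSO values. This gave a log2 fold change of 0.14 ± 0.092 (SE), with a 95% interval from −0.064 to 0.35 and a limma adjusted p of 0.308. IDH3A (NM_005530) encodes the catalytic alpha subunit of the NAD-dependent isocitrate dehydrogenase, the form usually placed in the cycle proper. It was at 91.6 and 91.7 TPM in DMSO and at 89.8 and 80.0 TPM in JG342. On the log2 scale the change was −0.11 ± 0.10 (SE), with a 95% interval from −0.34 to 0.12 and a limma adjusted p of 0.482. Of the annotated IDH3A transcript, 63.2% lies over exons of ACSBG1 on the opposite strand, but ACSBG1 was listed at no more than 0.28 TPM in any library. The ratio of IDH2 to IDH3A was 3.31 and 3.02 in DMSO and 3.55 and 4.02 in JG342.

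The NAD-dependent enzyme also has the subunits IDH3B and IDH3G. IDH3B, at 121 and 137 TPM in DMSO, fell to 97.8 and 102 TPM in JG342, by 0.37 on the log2 scale (SE 0.10, limma adjusted p 0.0385). The ratio of IDH3B to IDH3A was 1.32 and 1.496 in DMSO and 1.09 and 1.27 in JG342. With any 1 library left out IDH3B no longer passed, with log2 fold changes of −0.46 to −0.28 and limma adjusted p of 0.0662 to 0.253. It was the only gene called among the 14 listed for other subunits and enzymes of the cycle (7.14%, against 18.4% of all fitted genes). The other 13 were not called, and the median log2 fold change of the list was −0.045. IDH3G had a limma adjusted p of 0.622.

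OGDH (NM_001003941) encodes the first component of the 2-oxoglutarate dehydrogenase complex, a relative of pyruvate dehydrogenase that makes succinyl-CoA. It was at 85.7 and 84.1 TPM in DMSO and at 86.2 and 77.9 TPM in JG342, with overlapping groups. Its log2 fold change was −0.051 ± 0.10 (SE), with a 95% interval from −0.28 to 0.18 and a limma adjusted p of 0.768. DLST, the second component of that complex, was at 38.0 and 39.2 TPM in DMSO and 47.1 and 43.8 TPM in JG342 (limma adjusted p 0.172). The ratio of OGDH to DLST was 2.25 and 2.14 in DMSO and 1.83 and 1.78 in JG342. A processed pseudogene, DLSTP1, matches 89.2% of the DLST transcript at 96.04% identity, so the assignment of some DLST reads is uncertain. Whether the OGDH value covers all its isoforms or only the listed transcript, matched here to 1744 bases, is not stated. DLD, the third component shared with pyruvate dehydrogenase, had a limma adjusted p of 0.502.

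SUCLG1 (NM_003849) encodes the alpha subunit common to both succinyl-CoA synthetases, which make a nucleoside triphosphate while releasing succinate. It was at 104 and 103 TPM in DMSO and at 121 and 121 TPM in JG342. The replicates lay close together and the groups did not overlap. This gave a log2 fold change of 0.23 ± 0.092 (SE), with a 95% interval from 0.016 to 0.43. The limma adjusted p was 0.124, and 0.0429 with the replicate block; over 14 alternatives it ran from 0.0429 to 0.360. Of the beta subunits that pair with it, SUCLG2, of the GTP-forming enzyme, was at 61.7 and 65.3 TPM in DMSO and 56.9 and 53.8 TPM in JG342 (limma adjusted p 0.219), and SUCLA2, of the ATP-forming enzyme, was lower at 15.9 to 18.95 TPM (limma adjusted p 0.883). The ratio of SUCLG1 to SUCLG2 was 1.68 and 1.58 in DMSO and 2.13 and 2.25 in JG342. The ratio of SUCLG1 to CS, chosen after the values were seen, was 0.508 and 0.454 in DMSO and 0.681 and 0.704 in JG342.

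FH (NM_000143) encodes fumarase, which hydrates fumarate to malate and occurs in mitochondria and in the cytosol. Its levels were 254 and 269 TPM in DMSO and 218 and 232 TPM in JG342, without overlap. The log2 fold change was −0.21 ± 0.092 (SE), with a 95% interval from −0.42 to −0.0046. The pairs gave nearly the same change, −0.22 for replicates 1 and −0.21 for replicates 2. The limma adjusted p was 0.141, and 0.0321 with the replicate block; over 14 alternatives it ran from 0.0201 to 0.472. A processed pseudogene, FHP1, matches 39.0% of its transcript at 95.01% identity. The genes of succinate dehydrogenase, which makes the fumarate that FH uses, were not called: SDHA was at 236 and 234 TPM in DMSO and 213 and 204 TPM in JG342 (limma adjusted p 0.218), and SDHB, SDHC and SDHD had limma adjusted p of 0.779, 0.854 and 0.677. SDHAF4, an assembly factor of that enzyme, was at 3.07 and 9.76 TPM in DMSO and 16.4 and 11.2 TPM in JG342; its limma adjusted p was 0.0689. Its pairs gave log2 fold changes of 2.09 and 0.18, and its limma adjusted p was 1.81e-11 with the replicate block and 0.0191 with the block and median scaling.

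MDH2 (NM_001282403) encodes the mitochondrial malate dehydrogenase, which regenerates oxaloacetate and closes the cycle. It was at 207 and 237 TPM in DMSO and at 216 and 232 TPM in JG342. The JG342 values lay inside the DMSO range. Its log2 fold change was 0.015 ± 0.10 (SE), with a 95% interval from −0.22 to 0.25 and a limma adjusted p of 0.938, and its sign turned negative after median scaling and after leaving out the 10 most abundant genes. Against CS, the partner that uses its product, the ratio of MDH2 to CS was 1.01 and 1.04 in DMSO and 1.21 and 1.35 in JG342.

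**Figure D2:**
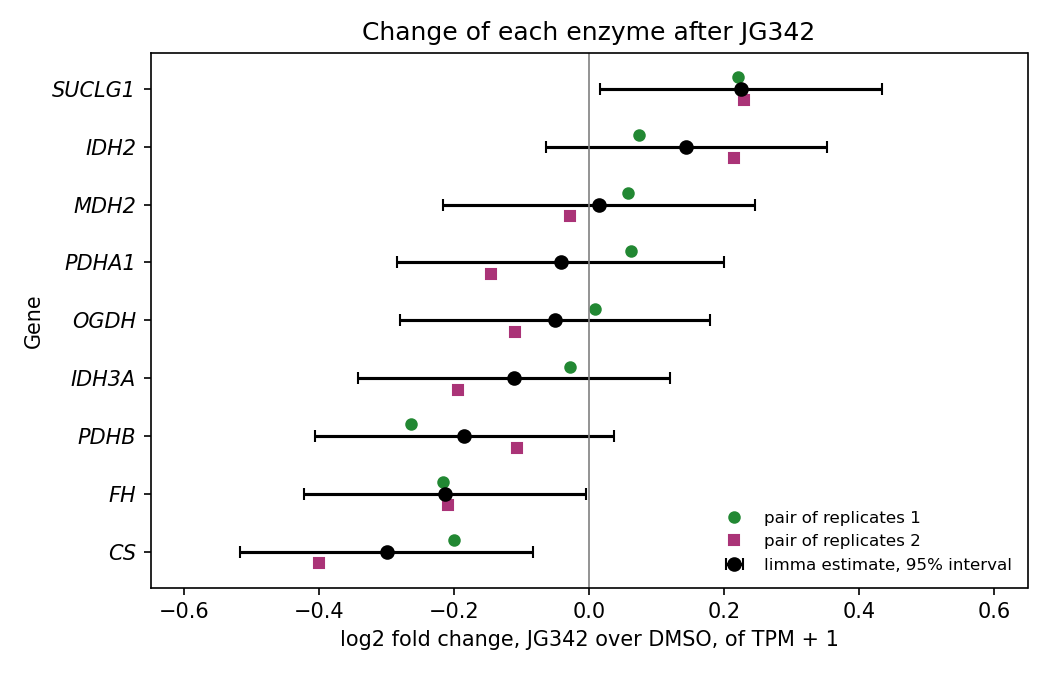
Fold change of each of the 9 enzymes on the log2(TPM + 1) scale, JG342 over DMSO. Black points and bars are the limma estimate with its 95% interval, green circles the pair of replicates 1 and purple squares the pair of replicates 2. The intervals of CS and FH lie below 0 and that of SUCLG1 above 0 before adjustment for the number of genes, and for PDHA1, OGDH and MDH2 the pairs fall on either side of 0.

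Genes around the 9 enzymes were read from lists of neighbouring genes. Over these lists, 57 of 63 genes were fitted and 10 passed, 6 as higher and 4 as lower (17.5%, against 18.4% of all fitted genes), with a median log2 fold change of −0.011. With the replicate block 19 passed, 10 as higher and 9 as lower, where 34.9% of all fitted genes passed. The cytosolic counterparts of the enzymes were set beside the matrix enzymes in the same libraries.

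IDH1, the cytosolic counterpart of IDH2, rose from 40.5 and 35.6 TPM in DMSO to 175 and 136 TPM in JG342, by 1.99 ± 0.14 on the log2 scale (SE, limma adjusted p 6.1e-05). IDH2 exceeded IDH1 in every library, but the ratio of IDH1 to IDH2 was 0.134 and 0.129 in DMSO and 0.549 and 0.423 in JG342. On the log2 scale that ratio shifted by 1.88. GOT1, the cytosolic aspartate aminotransferase of the malate-aspartate shuttle, rose from 76.5 and 76.1 TPM to 174 and 169 TPM, by 1.16 ± 0.092 (SE, limma adjusted p 0.000171). Its matrix counterpart GOT2 was at 122 and 140 TPM in DMSO and 111 and 110 TPM in JG342 (limma adjusted p 0.140; 0.0273 with the replicate block). MDH1, the cytosolic counterpart of MDH2, was at 189 and 185 TPM in DMSO and 169 and 156 TPM in JG342 (limma adjusted p 0.170), and the ratio of MDH1 to MDH2 was 0.912 and 0.781 against 0.785 and 0.672. Each log2 ratio was put to a two-sided exact permutation test over the 4 libraries. The permutation test gave p = 0.333 for IDH1 to IDH2 and for GOT1 to GOT2, and 0.667 for MDH1 to MDH2. The smallest value that 2 against 2 libraries allow is 0.333, so this test cannot decide whether any of these ratios changed.

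**Figure D3:**
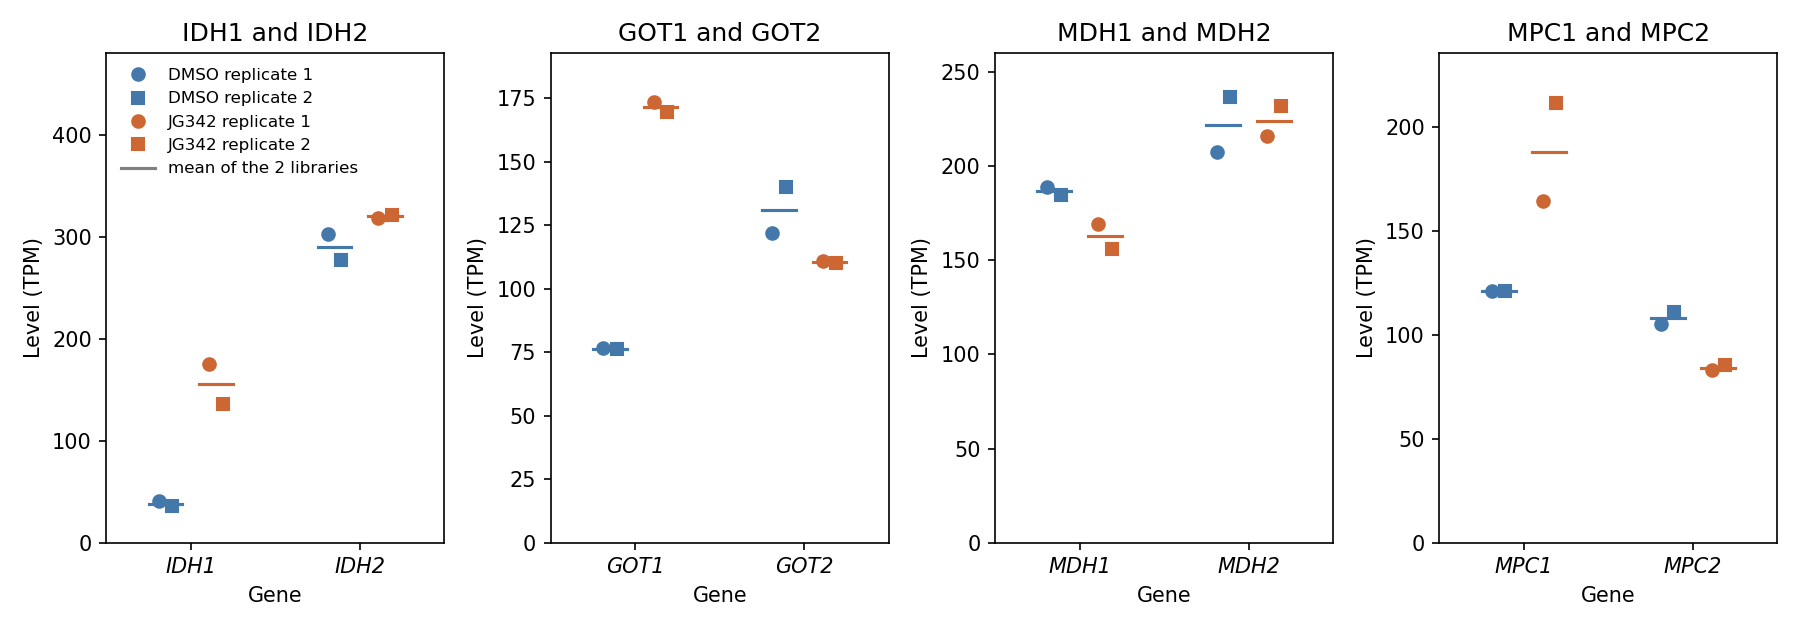
Levels in TPM (linear axes from 0, with a scale of its own in each panel) of 3 cytosolic enzymes beside their matrix counterparts, and of the 2 pyruvate carrier subunits. Circles are replicates 1, squares are replicates 2, blue is DMSO, orange is JG342, and bars are means of 2 libraries. IDH1 moves from 40.5 and 35.6 TPM to 175 and 136 TPM while IDH2 stays between 277 and 321 TPM.

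Oxaloacetate, the product of MDH2, is drawn from the cycle by PCK2, the mitochondrial phosphoenolpyruvate carboxykinase. PCK2 rose from 3.19 and 4.70 TPM in DMSO to 36.7 and 45.0 TPM in JG342, by 3.09 ± 0.18 on the log2 scale (SE, limma adjusted p 4.13e-05). The reverse entry by pyruvate carboxylase was low in these cells, with PC at 0.16 to 0.32 TPM and left out of the fit. GPT2, which makes 2-oxoglutarate, the substrate of OGDH, from glutamate and pyruvate, rose from 12.02 and 27.6 TPM to 52.6 and 62.4 TPM, by 1.59 ± 0.30 (SE, limma adjusted p 0.00834; 1.03 without DMSO replicate 1). Both are known targets of the stress factor ATF4. Whether ATF4 had a part in the rise of PCK2 and GPT2 was not tested. In a comparison list of 10 ATF4 targets, chosen with earlier results known, 9 were called higher (90%, against 10.8% of all fitted genes). The list had a median log2 fold change of 2.22. Between the DMSO libraries it stood higher in replicate 2, by a median of 0.74 on the log2 scale. The part of that difference between DMSO libraries in the results was not tested. The other 9 genes fitted for entry and exit of carbon were not called, among them GLUD1, which feeds glutamate into the cycle (87.0 and 94.6 TPM in DMSO, 106 and 106 TPM in JG342, limma adjusted p 0.148). The share called in that list was 18.2%, against 18.4% of all fitted genes.

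Citrate made by CS leaves mitochondria through the carrier SLC25A1, which fell from 109 and 111 TPM in DMSO to 82.9 and 75.8 TPM in JG342, by 0.47 on the log2 scale (SE 0.099, limma adjusted p 0.0134). ACLY, which splits that citrate in the cytosol, was at 108 and 111 TPM in DMSO and 94.5 and 82.4 TPM in JG342 (limma adjusted p 0.0756; 0.00537 with the replicate block). SLC25A10, the carrier of malate and succinate, fell from 62.4 and 72.5 TPM to 44.9 and 52.8 TPM, by 0.46 (SE 0.12, limma adjusted p 0.0348); an annotated transcript of another locus matches 64.2% of its transcript. With 1 library left out, SLC25A1 passed only without JG342 replicate 1 and SLC25A10 only without JG342 replicate 2, with limma adjusted p of 0.0531 to 0.0924 and 0.0582 to 0.225 in the others. The log2 fold changes in these fits ran from −0.53 to −0.40 for SLC25A1 and from −0.57 to −0.34 for SLC25A10. Of the 11 cytosolic counterparts and carriers fitted, 2 were called higher, 2 lower and 7 neither (36.4% called, against 18.4% of all fitted genes).

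**Figure D4:**
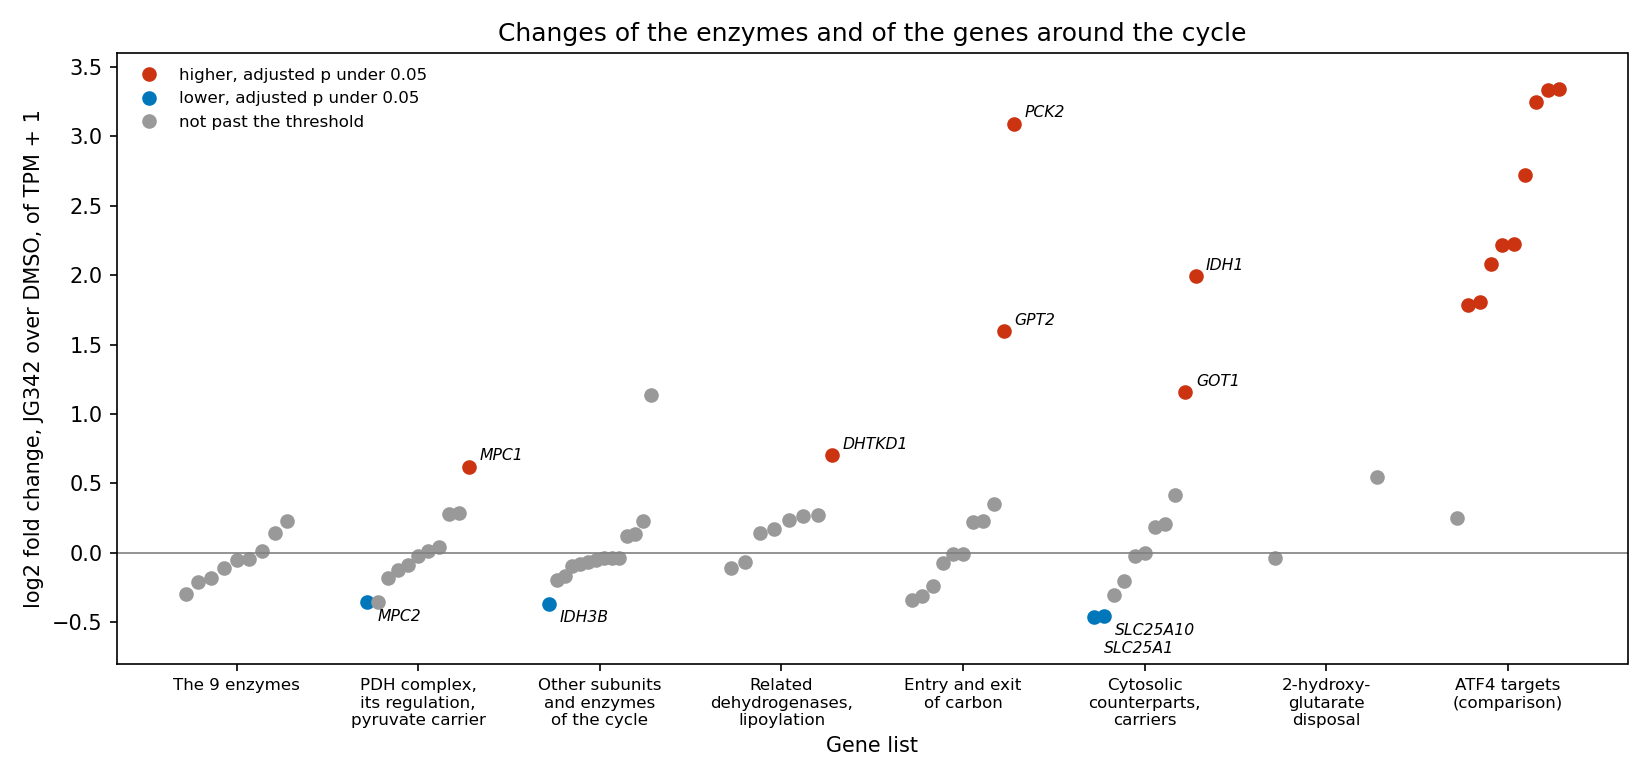
Fold change on the log2(TPM + 1) scale of the 9 enzymes, of 6 lists of neighbouring genes and of the comparison list of ATF4 targets. Each point is 1 fitted gene, red where called higher, blue where called lower and grey where not called, and called genes outside the comparison list are named. The 9 enzymes lie between −0.30 and 0.23, while PCK2 lies at 3.09 and IDH1 at 1.99.

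Promoter stretches are printed for a few genes, chosen by motif match or by change. MDH2 is the member with 2 matches to a motif, and IDH3A is a member with 1 match. CS and SUCLG1 are the members at the ends of the range of change, and GOT1 is a called neighbour with a match. PDHB, MPC2 and IDH3B also had a match and are not printed. The sequences come from RefSeq (GRCh38.p14), the 8 of the 9 genes found there having a window of 250 bases before to 50 bases after the start. Capitals mark matches to the motifs searched. The stretches are 150 bases before the start of MDH2 (chr7:76047956-76048105, plus strand), IDH3A (chr15:78149212-78149361, plus strand), CS (chr12:56300331-56300480, minus strand) and SUCLG1 (chr2:84459281-84459430, minus strand), and the first 150 bases of the GOT1 window (chr10:99430725-99430874, minus strand).
MDH2: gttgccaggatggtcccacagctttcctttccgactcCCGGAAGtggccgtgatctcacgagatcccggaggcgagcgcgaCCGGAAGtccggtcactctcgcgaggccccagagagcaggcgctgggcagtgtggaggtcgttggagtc
IDH3A: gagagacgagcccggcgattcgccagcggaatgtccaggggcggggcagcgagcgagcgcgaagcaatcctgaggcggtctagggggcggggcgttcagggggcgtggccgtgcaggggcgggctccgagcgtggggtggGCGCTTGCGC
CS: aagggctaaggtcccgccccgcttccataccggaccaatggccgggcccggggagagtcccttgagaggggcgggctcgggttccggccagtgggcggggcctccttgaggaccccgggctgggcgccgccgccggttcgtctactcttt
SUCLG1: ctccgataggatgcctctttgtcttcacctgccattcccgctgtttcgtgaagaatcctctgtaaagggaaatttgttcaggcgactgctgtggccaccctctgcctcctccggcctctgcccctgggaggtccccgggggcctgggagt
GOT1: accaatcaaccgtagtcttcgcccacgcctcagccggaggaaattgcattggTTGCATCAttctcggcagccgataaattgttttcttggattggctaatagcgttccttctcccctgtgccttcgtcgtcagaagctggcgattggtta

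The motifs, searched on both strands, were TGATGNAA (the CHOP-ATF composite element bound by ATF4), the motif of nuclear respiratory factor 1 (read in IDH3A as GCGCTTGCGC, with any base at the fifth place), CCGGAAG (ETS factors), AAGGTCA (estrogen-related receptors), AAGATGGC (YY1) and TGACGTCA (CREB). They were found in 3.62%, 5.78%, 10.3%, 3.92%, 2.89% and 1.85% of all 35116 promoter windows of that length, in the same order. MDH2 had CCGGAAG from positions −113 and −69 relative to the start, IDH3A had the nuclear respiratory factor 1 motif in the last 10 bases before it, and PDHB had AAGATGGC 21 bases into the transcript. Among the called neighbours, MPC2 had the nuclear respiratory factor 1 motif on the opposite strand from position −175. IDH3B, also called, had CCGGAAG from position −40. Both motifs were thus in 1 of 8 windows of the 9 genes and in 1 of 9 called neighbours. None of the matches in the 9 genes and the called neighbours overlapped another. The element TGATGNAA was in none of the 8 windows of the 9 genes and in 1 of 9 called neighbours in the table, GOT1, on the opposite strand from position −198. A match is a run of letters and not a shown binding site.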

How the data were processed

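RNA-seq was available for 4 libraries of MM.1S cells, 2 given JG342 and 2 given DMSO, grouped by the titles in the labels. The deposited table holds 1 TPM value per gene and library, each gene with a symbol and 1 RefSeq accession. Whether a value sums the isoforms of a gene or is that of the listed accession is not stated. No header states the unit: TPM was inferred from totals of 994463 to 994718, and the submitters' processing notes name RSEM 1.2.12, Bowtie2 2.2.5 and HISAT2 2.0.4 with no role given. The genome build, annotation and filters are not given in the sources used here, nor is whether strand was used.

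TPM is not a count, so no count model was used. The log2(TPM + 1) values of 12042 genes averaging 1 TPM or more were fitted with limma 3.58.1 in R 4.3.3 (lmFit, eBayes with a trend), with treatment as the only term. P-values are two-sided and adjusted by Benjamini-Hochberg over all fitted genes, with a threshold of 0.05. Fold changes on this scale understate the change of low genes. Standard errors rest on 2 residual and 6.89 prior degrees of freedom. The fit was tested on simulated data.

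The members and lists were chosen with earlier results of these data known. Named are the 9 members and, per list, every gene past the threshold, or else that with the smallest p. DLAT, PDK1, IDH3G, DLST, DLD, SUCLG2, SUCLA2, the SDH genes, SDHAF4, GOT2, MDH1, PC, GLUD1, ACLY, BCKDHA and BCKDHB, the ratios and the motifs were chosen after values were seen. Replicate numbers occur in both treatments and descriptions begin alike for libraries of one number, which was taken as pairing; their deviations from the treatment means correlated at 0.27 across genes. Alternatives were the replicate block, other scalings, pseudocounts of 0.1 and 5, other filters, no trend and leaving out each library. Depth, near copies (BLAST 2.17.0, 95% identity or more over 20% of a transcript or more) and exon overlaps used GENCODE 29. Near copies also covered 82.5% of the transcript of GLUD1, 78.1% of SUCLG2, 77.2% of BCKDHA and 71.7% of SDHA, among others. The copy of GLUD1, GLUD2, was listed at no more than 0.26 TPM. The depth estimate entered no test.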

Additional observations from a re-analysis of the deposited data

How the results depend on the processing

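The result that none of the 9 genes passed was kept in 10 of 14 alternatives; the replicate block passed 3, median scaling 1, the replicate block with median scaling 3, and leaving out the 10 most abundant genes 1. The sign of MDH2 turned, with log2 fold changes of −0.051 after median scaling with and without the replicate block and −0.0084 after leaving out those genes. With single libraries left out, MDH2 ran from −0.081 to 0.11, PDHA1 from −0.13 to 0.051 and OGDH from −0.12 to 0.022, and none of these passed. The other 6 members kept their sign throughout. Over all genes 2221 passed, of which 58.7% were higher; 4207 passed with the replicate block, 4226 with the block and median scaling, 828 with no filter on low values, and 767 to 1825 when each library was left out, fewest without DMSO replicate 2 (1046 without DMSO replicate 1). Higher genes were 44.6% of the calls after median scaling. Of the neighbouring genes 10 passed, against 19 with the replicate block, 21 with the block and median scaling, 4 with no filter, 6 without the mean-variance trend and 5 to 9 when each library was left out, where the lone library of a treatment was assumed to vary like the others. PCK2, IDH1 and GOT1 passed in all 14 alternatives and GPT2 in 13, the exception being no filter on low values. Depth is known only as an estimate, and with 2 libraries a group the 95% intervals of the 9 genes reach 0.21 to 0.24 on the log2 scale to either side. With a filter at 5 TPM D2HGDH was not fitted and has no value.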

Other observations

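Of 8 fitted genes for enzymes related to pyruvate dehydrogenase and OGDH, or for attaching lipoate to them, 1 was called higher and 7 were not called (12.5% called, against 18.4% of all fitted genes). The median log2 fold change was 0.21, with 6 of the 8 above 0, as were 6446 of all 12042 fitted genes. The called gene was DHTKD1, a 2-oxoadipate dehydrogenase of lysine breakdown and a close relative of OGDH. It rose from 20.1 and 15.7 TPM in DMSO to 31.9 and 27.3 TPM in JG342, by 0.70 ± 0.15 (SE, limma adjusted p 0.0139), and it no longer passed without DMSO replicate 2 (0.53, limma adjusted p 0.105) or with no filter on low values (limma adjusted p 0.0778). BCKDHA and BCKDHB, the first component of the branched-chain enzyme, were at 58.8 and 60.5 TPM and 34.0 and 33.3 TPM in DMSO, and at 67.7 and 73.7 TPM and 45.8 and 36.5 TPM in JG342, with limma adjusted p of 0.139 and 0.182; for BCKDHB it was 0.0472 with the replicate block and 0.109 with the block and median scaling, and its pairs gave log2 fold changes of 0.42 and 0.13.

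D2HGDH, which oxidises 2-hydroxyglutarate, a by-product of IDH activity, was not called. It was at 2.16 and 2.69 TPM in DMSO and 2.91 and 5.34 TPM in JG342 (log2 fold change 0.54, limma adjusted p 0.159; 0.0174 with the replicate block and 0.0778 with the block and median scaling). The log2 fold change moved with the JG342 library left out, to 0.89 without JG342 replicate 1 (limma adjusted p 0.0293) and to 0.20 without JG342 replicate 2 (limma adjusted p 0.635).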
